A study of Mus musculus with 34 samples.

Results

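The genes of the Notch pathway described here were the receptors Notch1, Notch2, Notch3 and Notch4, the ligands Jag1, Jag2 and Dll4, the target Hes1 and the DNA-binding factor Rbpj. They were taken by gene symbol from a table of 78298 genes measured by RNA sequencing of whole liver. The symbols matched 10 lines of the table for these 9 genes, because the deposited symbols had lost the letter x and Hesx1, a homeobox gene, was also listed as Hes1. Hes1 is the gene with the identifier ENSMUSG00000022528 throughout. The receptors are ENSMUSG00000026923 (Notch1, chromosome 2), ENSMUSG00000027878 (Notch2, chromosome 3), ENSMUSG00000038146 (Notch3, chromosome 17) and ENSMUSG00000015468 (Notch4, chromosome 17). The ligands are ENSMUSG00000027276 (Jag1, chromosome 2), ENSMUSG00000002799 (Jag2, chromosome 12) and ENSMUSG00000027314 (Dll4, chromosome 2), and Rbpj is ENSMUSG00000039191 on chromosome 5. Livers came from male C57/Bl6 mice aged 8 to 12 weeks, either untreated (0 h) or 6 h or 24 h after partial hepatectomy (PHx), the removal of the left lateral and median lobes. SIRT1intKO mice carried Villin-Cre and loxP-flanked Sirt1 alleles, so that the deacetylase SIRT1 was deleted in the intestinal epithelium. The mice called WT carried the loxP-flanked Sirt1 alleles without Cre, so every group had the floxed alleles, and no group carried Cre alone. There were 6 WT and 6 SIRT1intKO livers at 0 h, 6 WT and 5 SIRT1intKO livers at 6 h, and 4 WT and 7 SIRT1intKO livers at 24 h. The deletion lies in the intestine, and the level of Sirt1 in the liver therefore gave no check of the genotype labels.

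Notch receptors are single-pass proteins that are cut within the membrane when a Jagged or Delta-like ligand on a neighbouring cell pulls on them. The released intracellular part enters the nucleus, joins the DNA-binding protein RBPJ and turns RBPJ from a repressor into an activator of genes such as Hes1, which encodes a transcriptional repressor. In the liver, Notch signalling is known for its part in bile duct formation, where Jag1 on portal mesenchyme acts on Notch2 in biliary precursors, and for its part in sinusoidal endothelium, where Dll4, Notch1 and Notch4 are typical of endothelial cells. Notch3 is typical of mural cells.

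The stretches of DNA just before the transcription starts of Jag1, Dll4 and Rbpj are shown because Jag1 and Dll4 are the ligands that changed and Rbpj encodes the factor that reads the pathway's own motif. An exon of the noncoding antisense gene Gm14207 overlaps the far end of the Dll4 stretch. The sequences are from RefSeq windows on GRCm38.p6, cut where an exon of the same gene begins. The capitals mark TGGGAA, the core of the site that RBPJ binds, searched on both strands. The Jag1 stretch is chr2:137116645-137116770 on the minus strand, the Dll4 stretch chr2:119325534-119325783 on the plus strand and the Rbpj stretch chr5:53590096-53590213 on the plus strand. The annotated Rbpj gene spans chr5:53466152-53657362, so its stretch lies inside the gene, before an internal start. A second window for Rbpj, from 53590236, is not printed.
Jag1: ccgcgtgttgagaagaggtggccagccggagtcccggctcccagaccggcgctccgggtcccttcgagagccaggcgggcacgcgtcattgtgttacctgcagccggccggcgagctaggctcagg
Dll4: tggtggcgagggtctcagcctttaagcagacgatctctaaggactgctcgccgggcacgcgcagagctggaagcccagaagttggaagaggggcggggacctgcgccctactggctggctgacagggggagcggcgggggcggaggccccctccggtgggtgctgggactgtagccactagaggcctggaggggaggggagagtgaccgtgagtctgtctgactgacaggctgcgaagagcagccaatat
Rbpj: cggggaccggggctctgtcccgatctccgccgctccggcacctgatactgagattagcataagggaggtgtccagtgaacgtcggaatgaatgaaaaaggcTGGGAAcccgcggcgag
TGGGAA or its reverse complement TTCCCA stood in the 250 bases before the start in 21.6% of 32851 RefSeq windows, and the longer form GTGGGAA, which contains it, in 5.42%. Of the members with a window, which were all but Hes1, Rbpj alone held the core. It stood 149 to 144 bases before the start as printed, and a second match on the other strand, 65 to 60 bases before the start, lay within an annotated exon and is not printed. The longer form was in none of these windows.

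The values are expected counts per gene, scaled to the size of each library as CPM, and the libraries held 14892122 to 23480492 counts with a median of 16807340. All 9 genes passed the filter on low counts and were among 14980 genes tested by edgeR's quasi-likelihood test. Benjamini-Hochberg adjustment ran over all of them, fold changes are log2 values with their SE, and a gene passed the test at an adjusted p under 0.05. The expected counts of a member in a library ran from 0 to 19 for Jag2, from 5 to 72 for Dll4 and for Notch3, and from 217 to 951 for Notch2. The livers at 0 h carried library names from another number series than the livers after PHx, so differences in handling and the effect of PHx cannot be told apart. In the order of these names, SIRT1intKO replicates 1 to 4 and WT replicate 1 at 24 h came before the livers at 6 h. The other livers at 24 h came after those at 6 h, WT replicate 6 at 6 h aside. The labels do not say what this order stands for. At 24 h, this order and the genotype cannot be fully told apart. Among the WT livers at 24 h, replicates 1 and 2 stood apart from replicates 3 and 4. The summed level of 8 listed bile duct (cholangiocyte) markers was 566 and 304 CPM in the former and 109 and 130 CPM in the latter, and the summed level of 10 endothelial markers was 53.9 and 85.2 CPM against 146 and 128 CPM. Such sums weigh each marker by its level. Among the SIRT1intKO livers at 24 h, replicates 1 to 4 lay below replicates 5 to 7 without overlap in Notch1, Notch3, Notch4, Jag1, Jag2 and Dll4. Notch2, Hes1 and Rbpj overlapped between them. The endothelial sum was 85.8 to 126 CPM in the former and 143 to 173 CPM in the latter. The sum of stellate and mural cell markers was 76.7 to 99.85 CPM against 177 to 244 CPM. The cholangiocyte sums overlapped. The share of all genes without overlap between replicates 1 to 4 and 5 to 7 was not measured. In whole tissue, fewer cells of a type and less RNA per cell cannot be told apart.

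Per kilobase of exon, Hes1 was the highest of the 9 genes in every group and Jag2 the lowest. The length used was that of all annotated exons of a gene merged, such as 12750 bases for Rbpj and 2037 for Hes1. It can exceed the length of a single transcript, so the order between genes depends on this choice. In WT livers at 0 h, the level of Hes1 was 5.11 ± 2.81 CPM per kb (SD, n = 6), that of Notch2 1.52 ± 0.157 and that of Jag2 0.0339 ± 0.0250. Hes1 lay above Notch2, and Notch2 above Rbpj, without overlap between the libraries. From Rbpj at 0.808 CPM per kb through Notch1 at 0.750, Dll4 at 0.702, Notch4 at 0.628 and Jag1, which ran from 0.338 to 0.657 over the livers, to Notch3 at 0.222, each gene overlapped the next. SIRT1intKO livers at 0 h showed the same order. At 24 h in WT livers, Jag1 held rank 3 at 1.46 ± 0.845 CPM per kb (n = 4), overlapping Notch2 above and Rbpj below. In SIRT1intKO livers at 24 h it held rank 4 at 0.615 CPM per kb, and Hes1 overlapped Notch2 there.

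**Figure D1:**
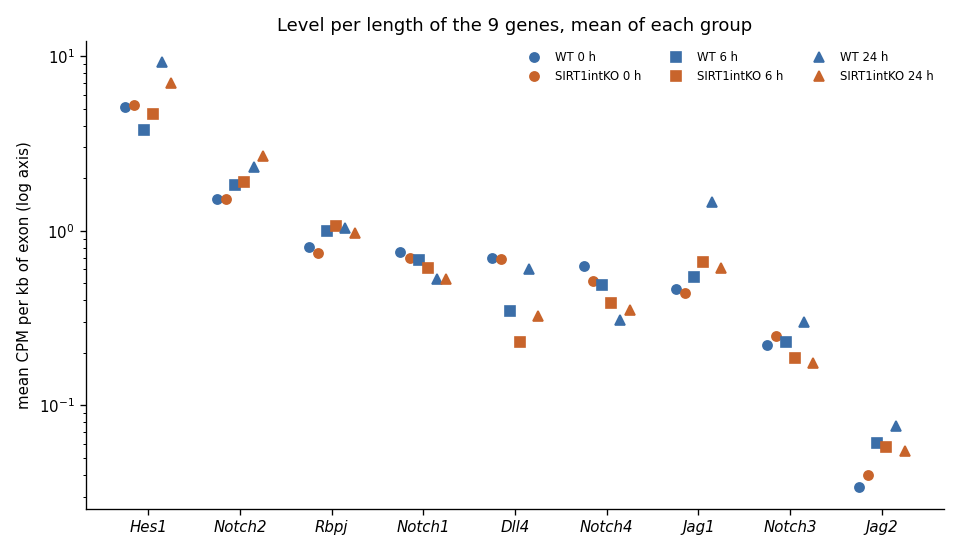
Mean level of each gene per kilobase of exon (CPM per kb, log axis) in the 6 groups, with colours for the genotype and symbols for the time. Hes1 is highest and Jag2 lowest in every group, and the Jag1 point of the WT livers at 24 h (1.46) lies above its other points.

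To describe the response to surgery, each time after PHx was compared with 0 h within each genotype. At 6 h, Dll4 fell and Rbpj rose in both genotypes, and no other member passed the test. That is 1 member higher and 1 lower of 9 in WT livers, where 18.9% of all genes tested were higher and 18.5% lower, and the same counts in SIRT1intKO livers, where 20.9% were higher and 17.6% lower. With the further threshold of an absolute log2 fold change over 1, Dll4 alone was differentially expressed in each genotype, against 15.6% of all genes in WT and 16.6% in SIRT1intKO livers. At 24 h in WT livers, Jag1, Hes1, Notch2 and Rbpj rose and Notch1 and Notch4 fell, against 19.5% of all genes higher and 14.6% lower. Of these, Jag1 and Notch4 passed the fold threshold, which 15.7% of all genes did. At 24 h in SIRT1intKO livers, Notch2 and Rbpj rose and Dll4 and Notch1 fell, against 26.2% of all genes higher and 24% lower. Dll4 alone passed the fold threshold there, which 23% of all genes did. The median log2 fold change of the 9 members was 0.05 and -0.18 at 6 h and 0.43 and 0.38 at 24 h, in WT and SIRT1intKO livers, beside medians over all genes of 0.02, 0.01, 0.02 and 0.04. The comparisons at 6 h and 24 h shared the 0 h livers of their genotype.

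**Figure D2:**
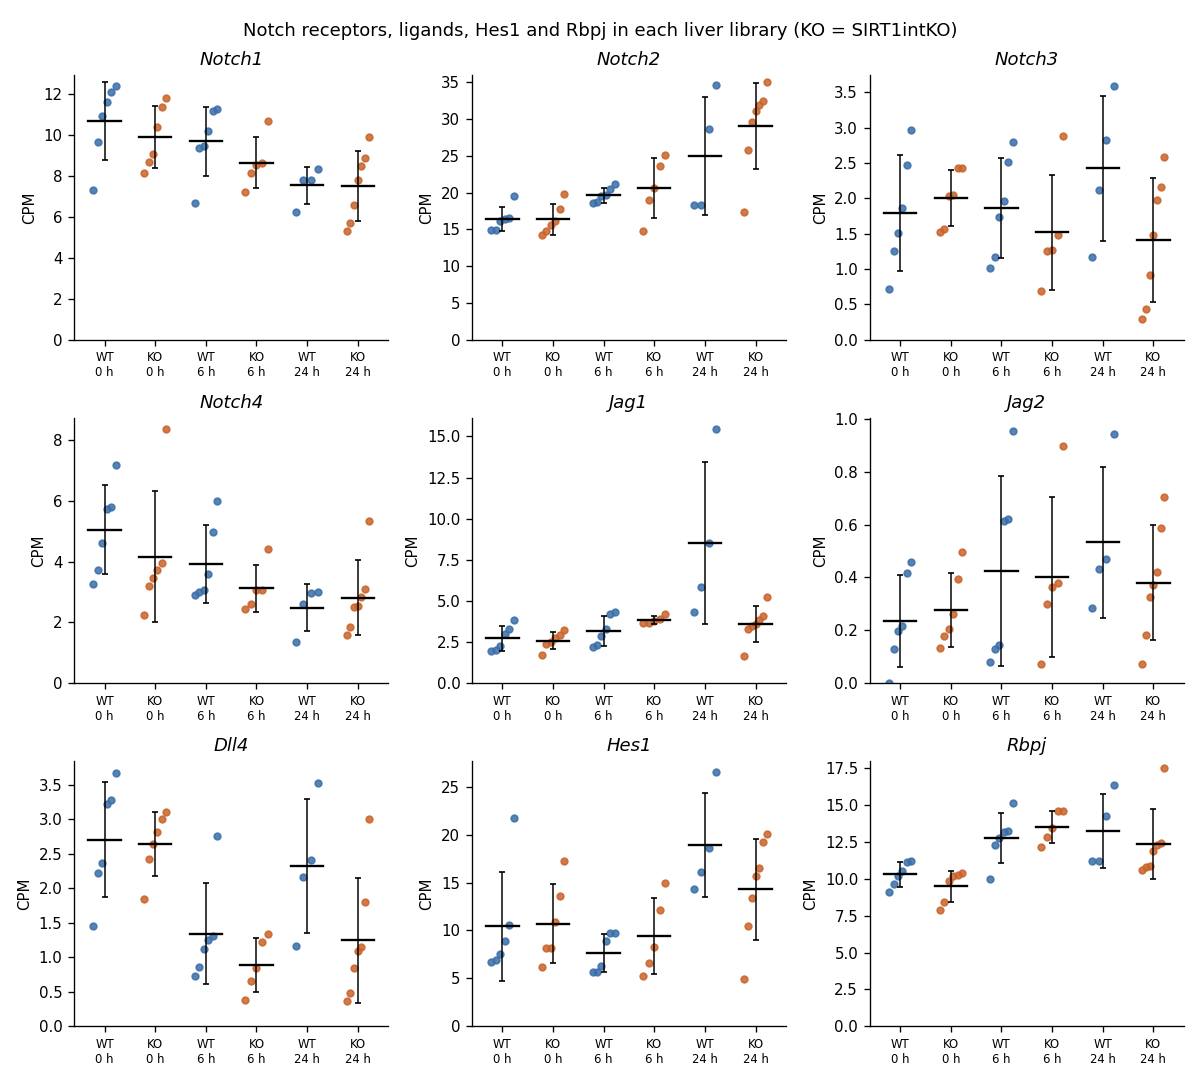
Level of each of the 9 genes in each of 34 liver libraries (CPM, linear axes from 0) by genotype and time, with the mean and SD of each group. The WT livers at 24 h reach 15.4 CPM of Jag1 while all other groups stay at or below 5.24 CPM, and within each genotype the mean of Dll4 is lowest at 6 h.

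Among the receptors, Notch2 had the highest level and rose with time. It lay between 14.9 and 19.6 CPM in WT livers at 0 h (median 16.2) and between 18.5 and 21.1 CPM at 6 h (median 19.6). At 24 h the WT livers held 34.6, 28.6, 18.3 and 18.3 CPM. All 4 livers at 24 h lay above 5 of the 6 livers at 0 h, and only replicates 1 and 2 lay above all of them. The log2 fold change at 24 h was 0.60 ± 0.17 in WT livers (edgeR adjusted p = 0.00583), and it was 0.42 without WT replicate 1 at 24 h (edgeR adjusted p = 0.0706). In SIRT1intKO livers Notch2 went from a median of 15.8 CPM at 0 h (14.2 to 19.9) to 31.1 CPM at 24 h (17.3 to 35), and 6 of the 7 livers at 24 h lay above all at 0 h. The change was 0.83 ± 0.15 on the log2 scale (edgeR adjusted p = 3.12e-05). The rise from 6 h to 24 h in SIRT1intKO livers was 0.49 ± 0.15 (edgeR adjusted p = 0.0164). This last call was lost without SIRT1intKO replicate 4 at 6 h (0.41, edgeR adjusted p = 0.0607), in a fit of those groups alone (edgeR adjusted p = 0.0513) and with the replicate block (edgeR adjusted p = 0.0509). At 6 h against 0 h the values were 0.26 ± 0.15 and 0.33 ± 0.16 in WT and SIRT1intKO livers, and neither passed the test. The value in WT livers passed in a fit of those groups alone (0.29, edgeR adjusted p = 0.00903).

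Notch1, the receptor typical of endothelium and many other cells, fell at 24 h. In WT livers it lay between 7.32 and 12.4 CPM at 0 h (median 11.3) and was 6.27, 8.34, 7.80 and 7.82 CPM at 24 h. The ranges overlapped through 1 liver at 0 h, replicate 5. Notch1 changed by -0.50 ± 0.17 log2 units (edgeR adjusted p = 0.0248), which missed the threshold without WT replicate 1 at 24 h (-0.41, edgeR adjusted p = 0.114) or WT replicate 3 at 0 h (-0.45, edgeR adjusted p = 0.0542). It was missed too with every gene of at least 1 count kept, with the replicate block and in a fit of those groups alone, with edgeR adjusted p from 0.0524 to 0.0653. In SIRT1intKO livers it fell from a median of 9.75 CPM (8.15 to 11.8) to 7.81 CPM (5.30 to 9.92). Of the 7 livers at 24 h, 4 lay below all at 0 h, namely replicates 1 to 4. The change was -0.39 ± 0.15 on the log2 scale (edgeR adjusted p = 0.0264). That call was lost without SIRT1intKO replicate 1, 2 or 3 at 24 h or replicate 3 or 6 at 0 h, with edgeR adjusted p from 0.0527 to 0.0712. It was also lost with every gene of at least 1 count kept (edgeR adjusted p = 0.0773) and in a fit of those groups alone (edgeR adjusted p = 0.0519). At 6 h the fold changes were -0.14 ± 0.15 and -0.19 ± 0.16, and neither passed.

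Notch4, an endothelial receptor, fell in WT livers at 24 h. The levels were 3.27 to 7.2 CPM at 0 h (median 5.18) and 1.35, 2.97, 2.62 and 2.99 CPM at 24 h, so that every liver at 24 h lay below every liver at 0 h. Over all genes, 19.3% had ranges that did not overlap in this comparison. Notch4 changed by -1.02 ± 0.33 log2 units (edgeR adjusted p = 0.0169), and it was -0.81 without WT replicate 1 at 24 h (edgeR adjusted p = 0.0919). In SIRT1intKO livers the values ran from 2.25 to 8.39 CPM at 0 h and from 1.59 to 5.34 CPM at 24 h, with a log2 fold change of -0.55 ± 0.28 that did not pass (edgeR adjusted p = 0.0965). It passed without replicate 7, the highest liver at 24 h (-0.80, edgeR adjusted p = 0.0155), and without replicate 4, the lowest liver at 0 h (-0.69, edgeR adjusted p = 0.0419), as well as with the replicate block (-0.76, edgeR adjusted p = 0.0227). In the other direction, it was -0.24 without replicate 5, the highest liver at 0 h. Notch3 lay between 0.301 and 3.58 CPM in all 34 libraries, and none of its comparisons passed the test. Its log2 fold change at 24 h against 0 h was 0.43 ± 0.43 in WT and -0.48 ± 0.38 in SIRT1intKO livers.

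Of the 3 ligands, Jag1 was the only one that rose past the test, at 24 h in WT livers. It was between 1.97 and 3.83 CPM in WT livers at 0 h (median 2.60), between 2.19 and 4.29 CPM at 6 h (median 3.07), and 8.55, 15.4, 4.29 and 5.82 CPM at 24 h. Each WT liver at 24 h lay above each WT liver at 0 h, where 19.3% of all genes had ranges apart, and replicates 1 and 2 lay above all other libraries. Jag1 changed by 1.64 ± 0.28 log2 units against 0 h (edgeR adjusted p = 5.01e-05) and by 1.42 ± 0.28 against 6 h, with an edgeR adjusted p of 0.000765. Both calls held without any single library, with values from 1.19 to 1.88 and from 0.976 to 1.67. In SIRT1intKO livers, Jag1 was 1.72 to 3.20 CPM at 0 h (median 2.61), 3.66, 4.23, 3.90, 3.64 and 3.77 CPM at 6 h, and 1.63 to 5.24 CPM at 24 h (median 3.56). All 5 livers at 6 h lay above the 6 at 0 h, a pattern that 26.2% of all genes showed in one direction or the other. Against 0 h, Jag1 differed by 0.57 ± 0.27 log2 units at 6 h (edgeR adjusted p = 0.0908) and by 0.48 ± 0.25 at 24 h, with an edgeR adjusted p of 0.106. The second was 0.59 without SIRT1intKO replicate 1 at 24 h (edgeR adjusted p = 0.0423), and the first passed in a fit of those groups alone (edgeR adjusted p = 0.0117).

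Dll4, the Delta-like ligand of endothelium, fell at 6 h. In WT livers it lay between 1.45 and 3.68 CPM at 0 h (median 2.80) and between 0.729 and 2.76 CPM at 6 h (median 1.19), where 1 liver, replicate 4, stood above the other 5. Dll4 changed by -1.01 ± 0.38 log2 units (edgeR adjusted p = 0.0346). This call was lost in 8 of 34 fits without 1 library, those without WT replicate 1, 2, 3, 5 or 6 at 6 h or WT replicate 1, 2 or 4 at 0 h, with values from -1.0 to -0.90 and edgeR adjusted p up to 0.0751. It was also lost with every gene of at least 1 count kept (edgeR adjusted p = 0.0619). In SIRT1intKO livers, Dll4 lay between 1.84 and 3.10 CPM at 0 h (median 2.73) and was 1.22, 0.845, 0.377, 1.34 and 0.659 CPM at 6 h, below every liver at 0 h, where 26.2% of all genes had ranges that did not overlap. The change was -1.57 ± 0.41 log2 units (edgeR adjusted p = 0.00338) and passed in every fit without 1 library. At 24 h the WT livers held 1.17, 2.17, 2.41 and 3.53 CPM, with a log2 fold change against 0 h of -0.22 ± 0.41 that did not pass (edgeR adjusted p = 0.706). The SIRT1intKO livers at 24 h ran from 0.367 to 3.00 CPM (median 1.08), and their log2 fold change was -1.05 ± 0.36 (edgeR adjusted p = 0.0151). The highest of them, replicate 5, overlapped the livers at 0 h, and the other 6 lay below all of those. Replicates 1 to 4 were at or below 1.08 CPM, and replicates 6 and 7 at 1.14 and 1.80 CPM. Jag2 was at or below 0.957 CPM in every library and at 0 in 1 WT liver at 0 h. Its log2 fold changes against 0 h were 0.84 ± 0.59 and 0.52 ± 0.62 at 6 h and 1.14 ± 0.63 and 0.49 ± 0.56 at 24 h, in WT and SIRT1intKO livers, and none passed.

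**Figure D3:**
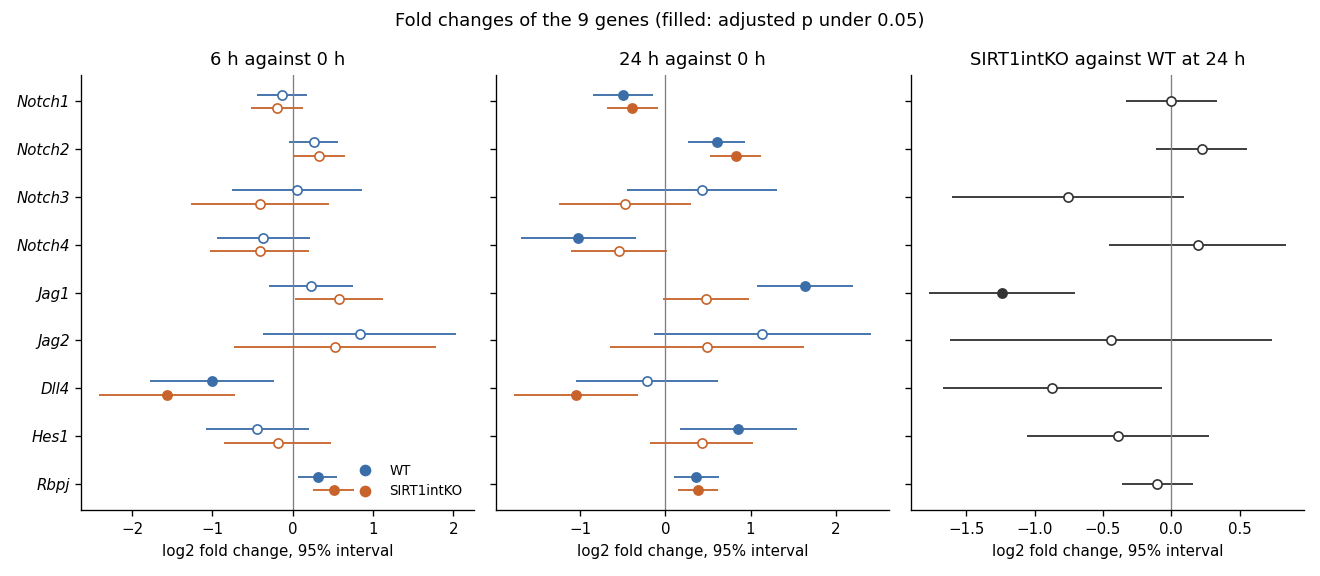
Log2 fold changes of the 9 genes with 95% intervals from edgeR, at 6 h and 24 h against 0 h in each genotype and between genotypes at 24 h. Filled points passed an adjusted p of 0.05, and between genotypes at 24 h the only filled point is Jag1 at -1.24.

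Hes1, the repressor that Notch signalling induces in many tissues, was higher at 24 h than at 6 h in WT livers. The levels were 5.68 to 9.75 CPM at 6 h (median 7.59) and 18.6, 26.6, 14.3 and 16.1 CPM at 24 h, without overlap, which 7.36% of all genes showed. Hes1 changed by 1.29 ± 0.34 log2 units (edgeR adjusted p = 0.00895) and passed without any single library. Against 0 h, where 5 WT livers lay between 6.73 and 10.6 CPM and replicate 3 at 21.7 CPM, the change was 0.86 ± 0.34 (edgeR adjusted p = 0.0486). This call sat at the threshold. It was lost in 23 of 34 fits without 1 library, over which its value ran from 0.65 to 1.21, and under 4 of 7 other settings. In SIRT1intKO livers Hes1 ran from 6.23 to 17.2 CPM at 0 h (median 9.54) and from 4.92 to 20.02 CPM at 24 h (median 15.7), a log2 fold change of 0.42 ± 0.30 that did not pass (edgeR adjusted p = 0.238). At 6 h the changes were -0.44 ± 0.31 in WT and -0.18 ± 0.33 in SIRT1intKO livers. Hesx1, which shares the deposited symbol, had 93 counts in all, none of them in the 12 livers at 0 h, and was kept apart.

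Rbpj, whose printed stretch before an internal start carries the core motif of its own product, rose by a small amount at both times. In WT livers it lay between 9.10 and 11.2 CPM at 0 h (median 10.3), between 9.96 and 15.2 CPM at 6 h (median 13), and at 16.4, 14.3, 11.2 and 11.2 CPM at 24 h. Above every WT liver at 0 h lay 5 of 6 livers at 6 h and 3 of 4 at 24 h. Rbpj changed by 0.31 ± 0.12 log2 units at 6 h (edgeR adjusted p = 0.0393) and by 0.36 ± 0.13 at 24 h, with an edgeR adjusted p of 0.0316. The first was lost in 17 of 34 fits without 1 library (values from 0.24 to 0.32, edgeR adjusted p up to 0.123, without WT replicate 5 at 6 h). The second was lost without WT replicate 1 or 2 at 24 h or WT replicate 2 or 5 at 0 h, with values from 0.26 to 0.35. With every gene of at least 1 count kept, with the replicate block and in a fit of those groups alone it was also lost, with edgeR adjusted p from 0.0645 to 0.12. The value at 6 h was lost under the first and second of these settings (edgeR adjusted p = 0.126 and 0.051). In SIRT1intKO livers Rbpj rose from 7.87 to 10.4 CPM at 0 h (median 10.01) to 12.2, 14.6, 13.5, 14.6 and 12.8 CPM at 6 h and 10.6 to 17.5 CPM at 24 h (median 11.9), above every liver at 0 h both times, which 26.2% of all genes showed at 6 h and 22% at 24 h in one direction or the other. These were changes of 0.51 ± 0.12 log2 units (edgeR adjusted p = 0.00168) and of 0.38 ± 0.12, with an edgeR adjusted p of 0.00698, and both held without any single library.

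Between 6 h and 24 h, Hes1 and Jag1 rose in WT livers, 2 members higher and none lower, where 10% of all genes were higher and 6.43% lower. In SIRT1intKO livers Notch2 alone rose, where 13.2% were higher and 14.4% lower. The other members did not pass. Their log2 fold changes ran in WT livers from -0.66 ± 0.33 for Notch4 and -0.36 ± 0.17 for Notch1 through 0.05 ± 0.13 for Rbpj, 0.30 ± 0.61 for Jag2, 0.34 ± 0.17 for Notch2 and 0.37 ± 0.43 for Notch3 to 0.79 ± 0.41 for Dll4. The value for Notch2 passed without WT replicate 3 at 24 h (0.49, edgeR adjusted p = 0.0416). In SIRT1intKO livers they lay between -0.20 ± 0.15 for Notch1 and 0.61 ± 0.32 for Hes1, with -0.09 ± 0.26 for Jag1 and 0.51 ± 0.40 for Dll4.

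The effect of the intestinal deletion was then compared at each time. At 24 h, Jag1 was lower in SIRT1intKO than in WT livers, and it was the only member of 9 past the test, where 5.81% of all genes passed it and 2.68% also passed the fold threshold. The 7 SIRT1intKO livers held 1.63 to 5.24 CPM (median 3.56) and the 4 WT livers 8.55, 15.4, 4.29 and 5.82 CPM, and 6 of the 7 lay below all WT livers, while the highest lay above WT replicate 3. Jag1 differed by -1.24 ± 0.26 log2 units (95% interval -1.77 to -0.71, edgeR adjusted p = 0.00874). Without WT replicate 2 it was -0.79 (edgeR adjusted p = 0.0685), and in a fit of the 24 h groups alone it was -1.24 (edgeR adjusted p = 0.259). Dll4 was lower in SIRT1intKO livers by a log2 fold change of -0.87 ± 0.39, which did not pass (edgeR adjusted p = 0.174), and which was -1.24 without SIRT1intKO replicate 5 (edgeR adjusted p = 0.0267). In WT livers Dll4 was 1.17 CPM in replicate 1 and 2.17 to 3.53 CPM in replicates 2 to 4. In SIRT1intKO livers it was at most 1.08 CPM in replicates 1 to 4 and at least 1.14 CPM in replicates 5 to 7. The part of the order of library names in this difference was not tested. The remaining members lay between -0.75 ± 0.42 for Notch3 and 0.22 ± 0.16 for Notch2, with -0.44 ± 0.58 for Jag2, -0.39 ± 0.33 for Hes1, -0.10 ± 0.13 for Rbpj, 0.00 ± 0.16 for Notch1 and 0.19 ± 0.32 for Notch4. The 95% interval for Notch1 was -0.33 to 0.33 and that for Rbpj -0.36 to 0.16.

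At 0 h and at 6 h no member differed between genotypes by edgeR, 0 of 9 also had an unadjusted p under 0.05, and DESeq2 called 0. Of all genes, 0% passed at 0 h and 0% at 6 h, while 161 and 976 had an unadjusted p under 0.05. The log2 fold changes of the members lay between -0.28 ± 0.28 (Notch4) and 0.21 ± 0.62 (Jag2) at 0 h, and between -0.60 ± 0.42 (Dll4) and 0.29 ± 0.33 (Hes1) at 6 h. Whether the response to PHx itself differed between genotypes was tested by the interaction of genotype and time. No member passed, against 0% of all genes at 6 h and 0.00668% at 24 h. For Jag1 the interaction at 24 h was -1.16 ± 0.37 (95% interval -1.92 to -0.40, edgeR adjusted p = 0.208), the only member with an unadjusted p under 0.05, and DESeq2 called none. The rise of Jag1 in WT livers was therefore not shown to differ from the change in SIRT1intKO livers after adjustment. The interaction for Dll4 was -0.83 ± 0.54 and for Hes1 -0.43 ± 0.45 at 24 h.

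A list of 58 other genes of the pathway was read in the same fit, of which 51 passed the filter on low counts. Those that did not were the ligand genes Dll3, Dlk1 and Dlk2, the targets Hes5, Hey1 and Hey2, and Rbpjl. At 6 h against 0 h, 9 of the 51 were higher and 12 lower in WT livers, beside 18.9% and 18.5% of all genes, and 9 were higher and 8 lower in SIRT1intKO livers, beside 20.9% and 17.6%. At 24 h, 12 were higher and 1 lower in WT livers, beside 19.5% and 14.6% of all genes, and 9 were higher and 13 lower in SIRT1intKO livers, beside 26.2% and 24%. Their median log2 fold changes were -0.09, -0.04, 0.14 and 0.07. Between genotypes at 24 h, 4 were lower in SIRT1intKO livers and none higher, where 5.81% of all genes passed in either direction, and at 0 h and 6 h none differed by edgeR or DESeq2, with 0 and 7 at an unadjusted p under 0.05. None passed either interaction by edgeR or DESeq2, with 3 at 6 h and 6 at 24 h at an unadjusted p under 0.05.

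Of the receptor cleavage machinery, Psen2, a presenilin of gamma-secretase, fell in all 4 comparisons with 0 h. Its mean was 210 ± 21.4 CPM (SD, n = 6) in WT livers at 0 h, 58.8 ± 9.17 CPM (n = 6) at 6 h and 96.2 ± 53.0 CPM (n = 4) at 24 h. The log2 fold changes were -1.84 ± 0.23 and -1.56 ± 0.24 at 6 h and -1.13 ± 0.26 and -0.72 ± 0.22 at 24 h in WT and SIRT1intKO livers. The sheddase Adam10 rose in the same comparisons, by log2 fold changes between 0.44 and 0.67. Of the targets, Sox9, a transcription factor of bile duct cells, rose at 24 h in both genotypes. It went from 7.32 ± 2.98 CPM to 49.9 ± 47.9 CPM in WT livers (log2 fold change 2.76 ± 0.48, edgeR adjusted p = 6.76e-05). In SIRT1intKO livers it went from 5.85 ± 2.65 CPM (n = 6) to 19.6 ± 11.3 CPM (n = 7), a log2 fold change of 1.74 ± 0.43. Heyl fell at 6 h, with changes of -1.23 ± 0.43 and -2.09 ± 0.49, and Dtx1, a Notch target and ubiquitin ligase, with changes of -2.09 ± 0.64 and -2.42 ± 0.67. Dtx1 was low throughout, with means of 0.49 and 0.64 CPM at 0 h and 0.11 CPM at 6 h in both genotypes. Hes1 passed in neither genotype at 6 h.

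Among the nuclear partners of RBPJ, the coactivator Maml3 fell at 6 h (-1.34 ± 0.34 in WT and -1.52 ± 0.36 in SIRT1intKO livers). The corepressor Spen rose (0.82 ± 0.16 and 0.67 ± 0.17). In the group for endocytosis and turnover, the Numb paralogue Numbl rose at 6 h (1.48 ± 0.32 and 1.21 ± 0.33), the Deltex gene Dtx4 fell (-1.52 ± 0.19 and -1.47 ± 0.20), and the ubiquitin ligase gene Neurl1a rose at 24 h (1.66 ± 0.52 and 1.61 ± 0.45). Neurl1a was low, with means of 0.20 and 0.28 CPM at 0 h and 0.65 and 0.86 CPM at 24 h. The glycosyltransferase Poglut1, which modifies Notch receptors, rose at 6 h (0.57 ± 0.12 and 0.49 ± 0.12). The corepressor Tle3 rose at 6 h in SIRT1intKO livers (1.37 ± 0.38) and at 24 h in WT livers (1.28 ± 0.39). At 24 h in SIRT1intKO livers Mfng, a Fringe glycosyltransferase of the receptors, and Rfng changed by -1.20 ± 0.35 and -0.72 ± 0.16, and Dtx1 by -2.22 ± 0.56, while Numbl rose (1.21 ± 0.31). Mfng and Dtx1 were low, with means there of 0.42 and 0.12 CPM at 24 h. Among the 4 genes lower in SIRT1intKO than in WT livers at 24 h were Dtx3 (-0.95 ± 0.23), Tle1 (-0.81 ± 0.20) and the coactivator Crebbp (-0.47 ± 0.11), with edgeR adjusted p from 0.0149 to 0.0194. Only 1 of the 4 passed without WT replicate 2 at 24 h, and none in a fit of those groups alone. Between 6 h and 24 h, 16 genes of the list were higher and 4 lower in WT livers and 8 higher and 6 lower in SIRT1intKO livers. Of all genes, 10% were higher and 6.43% lower in WT livers and 13.2% higher and 14.4% lower in SIRT1intKO livers. The largest of these in WT livers was Sox9 (3.35 ± 0.49), followed by Maml3 (1.85 ± 0.36), Neurl1a (1.58 ± 0.53) and the ligand gene Dll1 (1.54 ± 0.41). In SIRT1intKO livers Maml3 (1.76 ± 0.35), Neurl1a (1.56 ± 0.48), Heyl (1.51 ± 0.47) and Sox9 (1.4 ± 0.45) rose. Those that fell furthest were the coactivator Maml2 (-1.02 ± 0.33), Spen, Hdac2 and Snw1 in WT livers, and Spen, Itch, Maml1 and Ep300 in SIRT1intKO livers (-0.59 to -0.41).

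**Figure D4:**
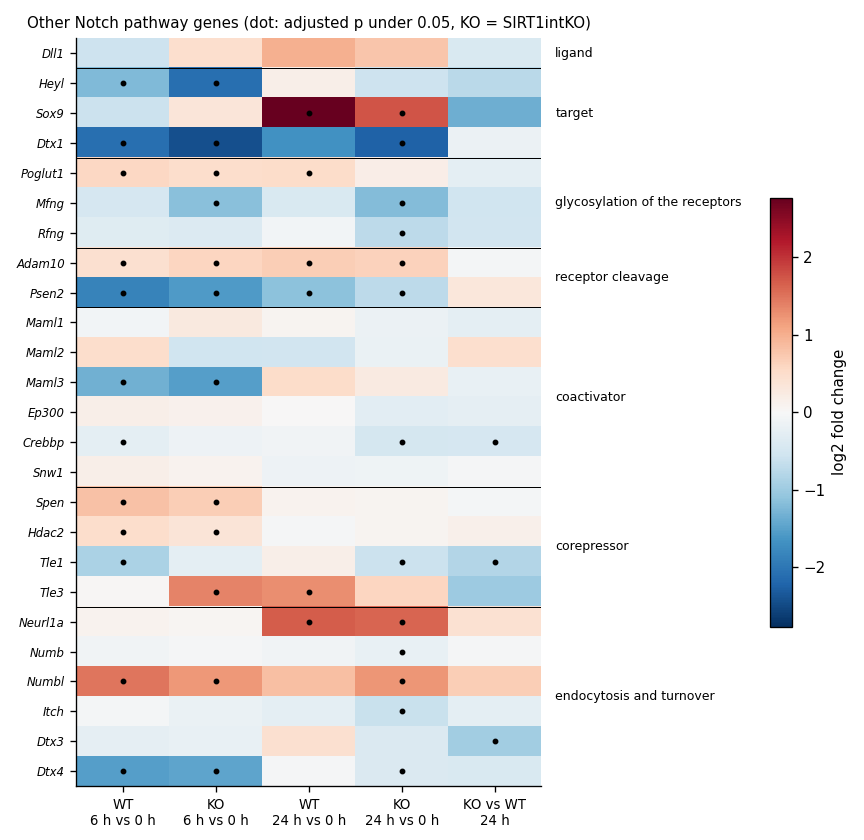
Log2 fold changes (colour scale) of the genes of the wider Notch list that are named in the text, grouped by role, in 5 comparisons, with a dot where the adjusted p was under 0.05. Psen2 is blue with a dot in each comparison with 0 h, and Sox9 is the darkest red at 24 h in WT livers.

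Markers of the cell types that typically carry these genes moved with time as well. Of 10 endothelial markers, 1 rose and 1 fell at 6 h in WT livers and 3 fell in SIRT1intKO livers. Of all genes, 18.9% rose and 18.5% fell in the WT livers, and 20.9% rose and 17.6% fell in the SIRT1intKO livers. At 24 h, 6 endothelial markers fell in WT livers, beside 14.6% of all genes. In SIRT1intKO livers 5 fell and 1 rose, beside 24% and 26.2% of all genes. The summed level of the endothelial markers ran from 143 to 221 CPM in WT livers at 0 h, from 125 to 189 CPM at 6 h and from 53.9 to 146 CPM at 24 h. In SIRT1intKO livers the ranges were 168 to 248, 105 to 191 and 85.8 to 173 CPM. None of these markers was at 0 in any group. Of the members, Dll4 fell at 6 h in WT livers, where 1 marker rose and 1 fell, and in SIRT1intKO livers, where 3 markers fell. At 24 h Dll4 fell in SIRT1intKO livers, Notch1 fell in both genotypes, and Notch4 fell in WT livers. The part of the endothelial list in those changes was not tested. Between genotypes at 24 h, where Dll4 was lower in SIRT1intKO livers by a value that did not pass, no endothelial marker passed the test. Of all genes, 5.81% passed it there.

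Of 8 cholangiocyte markers 7 were tested, and Sox9 was on both lists. At 24 h against 0 h, 3 rose in WT and 4 in SIRT1intKO livers, and none fell. Of all genes, 19.5% rose and 14.6% fell in WT livers, and 26.2% rose and 24% fell in SIRT1intKO livers. The summed level of the cholangiocyte markers was 80.0 to 110 CPM in WT livers and 87.4 to 108 CPM in SIRT1intKO livers at 0 h. At 24 h it was 109 to 566 CPM and 104 to 408 CPM. Spp1 had the largest mean of the list in WT livers at 24 h (164 CPM, from 49.1 to 399). Krt19 ran from 1.57 to 3.75 CPM there, against 0.894 to 3.98 CPM at 0 h. The mean log2 CPM of the list, in which each marker counts alike, was 1.92 at 0 h and 2.81 at 24 h in WT livers. In the WT livers at 24 h the summed level was highest in replicates 1 and 2, the livers with the highest Jag1, Notch2, Rbpj and Hes1. None of the 7 tested cholangiocyte markers passed the test between genotypes at 24 h, where 5.81% of all genes did, Jag1 among them. Of 9 stellate and mural cell markers, the cells in which Notch3 is typical, 2 rose and 2 fell at 24 h in WT livers and 4 rose and 2 fell in SIRT1intKO livers. Monocyte and neutrophil markers summed to 56.0 to 1054 CPM in SIRT1intKO livers at 24 h and to 35.2 to 132 CPM in WT livers, and 3 of 7 were higher in SIRT1intKO livers. The part of these lists in the results for Jag1, Notch2 and Hes1 was not tested. The label of liver tissue was borne out by 8 hepatocyte markers, which summed to at least 33330 CPM in every library, and 5 of the 8 fell at 24 h in each genotype. Of 5 intestinal markers, Cdx1 and Cdx2 were at 0 in every group, but the sum of the list ran from 32 to 313 CPM over the libraries, and 1 of its 2 tested genes was higher in SIRT1intKO than in WT livers at 24 h.

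**Figure D5:**
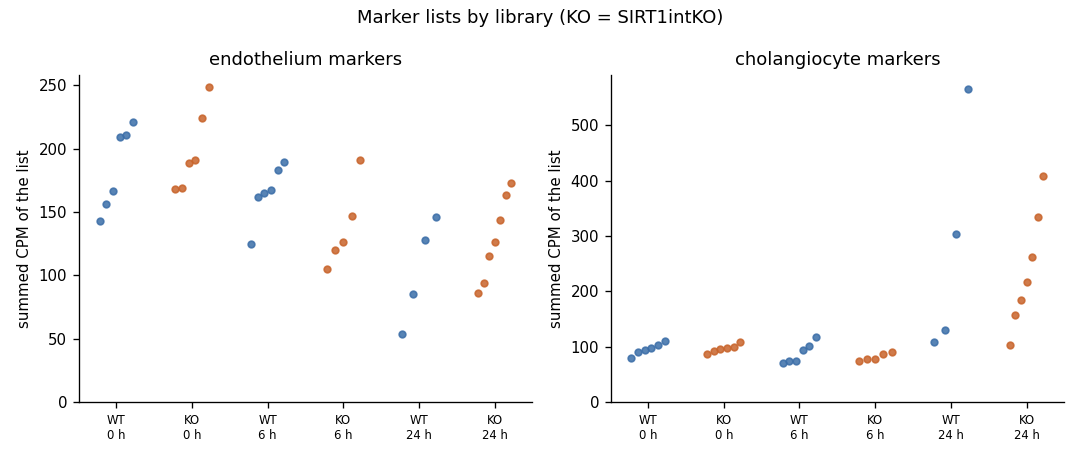
Summed level (CPM, axes from 0) of 10 endothelial and 8 cholangiocyte markers in each liver library by genotype and time. The endothelial sum is lowest in a WT liver at 24 h (53.9 CPM), the liver with the highest cholangiocyte sum (566 CPM).

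The members were also compared among themselves, on log2 CPM with the mean of each group removed, over 34 libraries. Of 36 pairs, 8 passed an adjusted p of 0.05 for Pearson's r in a permutation test within groups (100000 permutations, two-sided, adjusted over 36 pairs), and all 8 were positive. All 8 also passed for Spearman's rho, and Notch2 with Rbpj passed for rho only. The closest pair was Notch3 and Dll4 (r = 0.753, permutation p = 5e-05, adjusted 0.0018, and rho = 0.675, permutation p = 0.00033, adjusted 0.00684), with r = 0.684 without the 2 libraries farthest from the median of Notch3. Dll4 also moved with Notch1 (r = 0.595, rho = 0.536), Jag2 (r = 0.554, rho = 0.573) and Notch4 (r = 0.53, rho = 0.559), with permutation p from 0.00135 to 0.00372 and adjusted p from 0.0121 to 0.022, and r was 0.542 to 0.608 without the 2 farthest libraries. Notch3 and Jag2 had r = 0.641 and rho = 0.632 (permutation p = 0.0003 and 0.00038, adjusted 0.0054 and 0.00684), and r = 0.603 without the 2 farthest. The other 2 pairs, Notch3 with Notch4 and Notch4 with Jag2, had r = 0.473 and 0.439 and rho = 0.514 and 0.492 (permutation p from 0.00428 to 0.0108, adjusted 0.022 to 0.0488), and r = 0.485 and 0.471 without the 2 farthest. Jag1 and Hes1 had r = 0.459 (permutation p = 0.00927, adjusted 0.0477) and rho = 0.553 (permutation p = 0.00066, adjusted 0.00792), and r was 0.5 without the 2 libraries farthest for Jag1. Notch2 and Rbpj had r = 0.544, which missed the threshold (permutation p = 0.0129, adjusted 0.0517), and rho = 0.529, which passed it (permutation p = 0.00739, adjusted 0.0296). Without the 2 farthest libraries for Notch2, r was 0.455. These points share each library's cell makeup and depth. The share of all gene pairs that would pass was not measured, so 8 of 36 cannot be read as particular to these genes. The permutation treats the livers of a group as exchangeable. In SIRT1intKO livers at 24 h, however, replicates 1 to 4 lay below replicates 5 to 7 in Notch1, Notch3, Notch4, Jag1, Jag2 and Dll4. All of the 8 pairs except Jag1 with Hes1 lie among these genes. In WT livers at 24 h, replicates 1 and 2 lay above replicates 3 and 4 in Jag1, Hes1, Notch2 and Rbpj. The part of these splits in the correlations was not tested.

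Over all 34 libraries, without removing group means, the gene most like each member among the 14980 tested was found by Pearson's r of log2 CPM, as a description. Dll4 was most like Bmal1, a core gene of the circadian clock (r = 0.862, and 0.738 with the group means removed), then Trp53i11 (0.840) and Dock6 (0.838). Notch2 was most like Hmga1, Myo9b and Cald1 (r = 0.917 to 0.919), and Rbpj like Trmt61a, Wasf2 and Ripk4 (0.843 to 0.846). Jag1 was most like Amn (0.836), Ppp1r12a (0.824) and Inip (0.813). Notch1 was most like Taf4 (0.777), Zfp276 (0.749) and Gm7609 (0.747), Notch3 like Hdac7 (0.758), Mmd2 (0.746) and Efnb2 (0.738), and Notch4 like Daam2 (0.738), Exoc3l (0.731) and Arap3 (0.716). Jag2 was most like Dmtn (0.760), Sema3g (0.704) and Tafa2 (0.696), and Hes1 like Msh6 (0.714), Rara (0.709) and the Notch ligand gene Dll1 (0.699).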

How the data were processed

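Whole liver was sequenced as polyA RNA in 34 libraries from 34 mice (stranded mRNA kit, paired-end reads). The authors trimmed adapters, aligned with STAR and quantified with Salmon in a standard pipeline. The submitters' processing notes name GRCm39, and versions are not given in the sources used here. The deposited values are expected counts per gene, estimated by Salmon and not normalized, of which 3.65% were not whole (tolerance 0.001). They were rounded to whole numbers here. The table holds 35 library columns, of which 1 matched no label and was not used. Symbols had lost the letter x, and 1316 were restored by gene ID. The study names 5 WT mice at 24 h, and the labels give 4. For 6 h it names 5 mice per group, and the labels give 6 WT livers. In the order of library names, WT replicate 6 at 6 h stands between livers at 24 h. Whether a label is wrong was not tested. Groups came from the labels, and replicate numbers name different mice: same-numbered libraries did not deviate together (median r -0.00364 over 76 pairs). No 2 replicates agreed within sampling noise (82 pairs compared).

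Genes were kept by filterByExpr and tested with edgeR 4.0.16 (TMM scaling, quasi-likelihood test, 1 mean per genotype and time over all libraries) in R 4.3.3. The biological coefficient of variation was 0.302. CPM used TMM-scaled library sizes, and log2 CPM a prior count of 2. The depth of 14892122 to 23480492 counts leaves the members Jag2, Dll4 and Notch3 with few counts, and Dtx1, Neurl1a and Mfng of the wider list. Exon lengths and RefSeq windows are from GRCm38, a different build from the one named for the files. The test was run on simulated counts for SIRT1intKO against WT at 24 h, with 200 changed genes of 14588. It called 153 of these 200 genes and 8 others. The share called at fold changes of the size reported for the members was not tested. Alternatives were DESeq2 1.42.0, its size factors, upper-quartile scaling, 2 filters on low counts, a replicate block, only the groups compared, and leaving out each library. For the wider Notch list the last 3 were chosen after seeing the data. Genes were named by rule: all 9 members in every comparison, of the wider list up to 4 genes past the test in each direction with the largest change, chosen per comparison, and the 3 genes most like each member. A gene so named in 1 comparison may be followed in others. Spp1 and Krt19 are named as parts of a marker sum. Some genes that this rule takes are not reported here. The members and lists were chosen with earlier results of these data known.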

Additional observations from a re-analysis of the deposited data

Results flagged for a closer look

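The level of each member was screened in each of the 6 groups for a library far from the rest of its group, as a gap beyond Dixon's critical value. Of 54 groups screened 6 held such a library. Chance gives about 1 in 20 for normally distributed values, but the CPM were not log-transformed and the groups screened share libraries. The share over all genes was not measured, so no excess can be read from this count. Notch2 was 19.6 CPM in WT replicate 6 at 0 h, where the other 5 livers held 14.9 to 16.5 CPM. Hes1 was 21.7 CPM in WT replicate 3 at 0 h against 6.73 to 10.6 CPM in the others. Dll4 was 2.76 CPM in WT replicate 4 at 6 h against 0.729 to 1.31 CPM in the others. Notch4 was 8.39 CPM in SIRT1intKO replicate 5 at 0 h against 2.25 to 3.94 CPM, and 5.34 CPM in SIRT1intKO replicate 7 at 24 h against 1.59 to 3.10 CPM. Rbpj was 17.5 CPM in SIRT1intKO replicate 4 at 24 h against 10.6 to 12.5 CPM. All 6 were high rather than low.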

How the results depend on the processing

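All 18 member fold changes past the test kept their sign under every alternative run, and 79 of 735 alternative values no longer passed. Mean levels under DESeq2 size factors moved by less than 1 SD in each group. With every gene of at least 1 count kept, 0 members passed at 6 h against 0 h in WT livers (2 in the reported fit) and 3 at 24 h (6), and the wider list had 12 genes at 24 h against 6 h in WT (20) and 8 in SIRT1intKO livers (14). With at least 10 counts in every library, which removes Dll4, Jag2 and Notch3, 1 member passed at 6 h in each genotype. With the replicate block, which joins same-numbered livers although the numbers do not pair the mice, 1 member passed at 6 h in WT livers and 0 at 24 h against 6 h in SIRT1intKO livers, and the list had 12 genes at 24 h against 6 h in WT and 2 between genotypes at 24 h. With only the groups compared, the members were 3 at 24 h against 0 h in WT, 0 at 24 h against 6 h in SIRT1intKO and 0 between genotypes at 24 h, and the list 5 and 8 genes at 24 h against 6 h in WT and SIRT1intKO livers and 0 between genotypes. The cause was not tested. Leaving out 1 library moved the members past the test to 0 to 2 at 6 h against 0 h in WT (0 without WT replicate 1, 2, 3 or 5 at 6 h or 2 at 0 h), 1 to 6 at 24 h against 0 h in WT (1 without WT replicate 1 at 24 h), 0 to 1 at 24 h against 6 h in SIRT1intKO (0 without SIRT1intKO replicate 4 at 6 h) and 0 to 2 between genotypes at 24 h (0 without WT replicate 2, 2 without SIRT1intKO replicate 5). It moved the list to 12 to 20 and 8 to 16 genes at 24 h against 6 h in WT (12 without WT replicate 1 at 24 h or 5 at 6 h) and SIRT1intKO (8 without replicate 4 at 6 h), and to 1 to 9 between genotypes at 24 h (1, 7 and 9 without WT replicate 2, WT replicate 3 and SIRT1intKO replicate 5).

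Signs changed only for fold changes that did not pass in the reported fit. Between genotypes, Notch2 at 0 h was 0.000134 with DESeq2, 7.98e-05 with its size factors and 0.00461 with only the groups compared. At 24 h Notch1 was -0.064 with the replicate block and -0.000576 with only the groups compared, and Notch4 -0.087 with the block. The interaction of Rbpj at 24 h was -0.00132 with only the groups compared, and Jag2 at 24 h against 6 h in SIRT1intKO livers was 0.016 with upper-quartile scaling. Leaving out 1 library changed further signs. For 6 h against 0 h in WT this gave -0.11 to 0.26 for Notch3. For 6 h against 0 h in SIRT1intKO this gave -0.020 to 0.77 for Jag2 and -0.41 to 0.00128 for Hes1. For 24 h against 0 h in WT this gave -0.50 to 0.00531 for Dll4. For 24 h against 6 h in WT this gave -0.13 to 0.72 for Jag2 and -0.035 to 0.15 for Rbpj. For 24 h against 6 h in SIRT1intKO this gave -0.28 to 0.31 for Notch3, -0.38 to 0.037 for Notch4, -0.21 to 0.047 for Jag1 and -0.28 to 0.49 for Jag2. Between genotypes at 0 h this gave -0.060 to 0.057 for Notch2, -0.00949 to 0.35 for Notch3, -0.16 to 0.046 for Jag1, -0.043 to 0.52 for Jag2, -0.16 to 0.070 for Dll4 and -0.15 to 0.39 for Hes1. Between genotypes at 6 h this gave -0.012 to 0.16 for Notch2 and -0.63 to 0.29 for Jag2. Between genotypes at 24 h this gave -0.10 to 0.050 for Notch1 and -0.052 to 0.29 for Notch4. For the interaction at 6 h this gave -0.16 to 0.029 for Notch1, -0.010 to 0.15 for Notch2, -0.22 to 0.26 for Notch4, -0.85 to 0.084 for Jag2 and -0.098 to 0.44 for Hes1. For the interaction at 24 h this gave -0.090 to 0.10 for Rbpj. Depth limits Jag2, with at most 19 counts in a library.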
